A study of Rattus norvegicus with 4 samples.

Results

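Transcripts of 4 MAP kinases (Mapk3, Mapk8, Mapk9, Mapk14) and 5 dual-specificity phosphatases (Dusp1, Dusp2, Dusp4, Dusp5, Dusp6) were followed in rat alveolar macrophages exposed to titanium dioxide particles. The genes were chosen by name, and every probe whose RefSeq accession belongs to one of them was taken, which gave 13 probes for 9 of 16579 named genes. RNA came from NR8383, a macrophage line established by lung lavage from a normal rat, whose cells grow both adherent and floating. Cells at passage 20 were seeded for 48 h. All 4 samples (replicates 1 to 4) had been exposed for 4 h to NRCWE001, a titanium dioxide material, at a dose given as 3 cm2/cm2. They are described as biological replicates. Nothing says that they came from separate days or batches of cells, so p-values measure the spread between these 4 samples, which may be technical. Unexposed cells, which the design also names, were not analysed here. No value below therefore says whether the particles raised or lowered a transcript. As 1 cell line stands for alveolar macrophages, nothing was measured of other lung cells.

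MAP kinases are the last kinases of a relay in which each kinase phosphorylates the next. ERK1 (Mapk3) answers mainly to growth factors, while the JNKs (Mapk8 and Mapk9) and p38alpha (Mapk14) answer mainly to stress and inflammatory signals, and all of them drive cytokine production in macrophages. A MAP kinase is active when a threonine and a tyrosine of its activation loop carry phosphate. Dual-specificity phosphatases remove both phosphates, and many of their genes are switched on by the kinases they oppose, which closes a negative feedback loop. An array measures transcripts and says nothing of phosphorylation or kinase activity.

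Each culture was measured on its own one-colour array, and all 4 arrays lay on 1 slide. Levels are given as log2 of the processed signal relative to the 75th percentile of the same array, which was 433, 347, 554 and 414 intensity units on replicates 1 to 4. Probes bind with different strength, so levels are compared between arrays for 1 probe and never between genes. A gene was called detected on an array when any of its probes was flagged well above background. On each array between 15314 and 16708 probes were detected, and no spot was saturated. None of the spots had the same signal on any pair of arrays. Macrophage markers were detected throughout in 7 of 11 cases, among them Cd68 and Lyz2, while Marco, Cd163 and Adgre1 were on none. Of markers of other cells, 1 of 10 for lung epithelium (Foxj1), 2 of 6 for lymphoid cells, 2 of 7 for granulocytes and mast cells and 3 of 9 for fibroblasts and endothelium were detected on all 4 arrays. Of all named genes 45.7% were.

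All 4 MAP kinases and 3 of the 5 phosphatases were detected on all 4 arrays, so 7 of 9 members were, where 45.7% of all named genes were. In RNA of whole cultures, fewer cells with a transcript and less of it per cell cannot be told apart. The 2 exceptions, Dusp1 and Dusp4, were detected on no array, as were 48.2% of all genes. With a more lenient flag (signal positive and significant against background) Dusp1 was detected on all 4 arrays and Dusp4 on none. By that flag 8 of 9 members were detected on all 4 arrays, where 55.3% of all genes were.

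**Figure D1:**
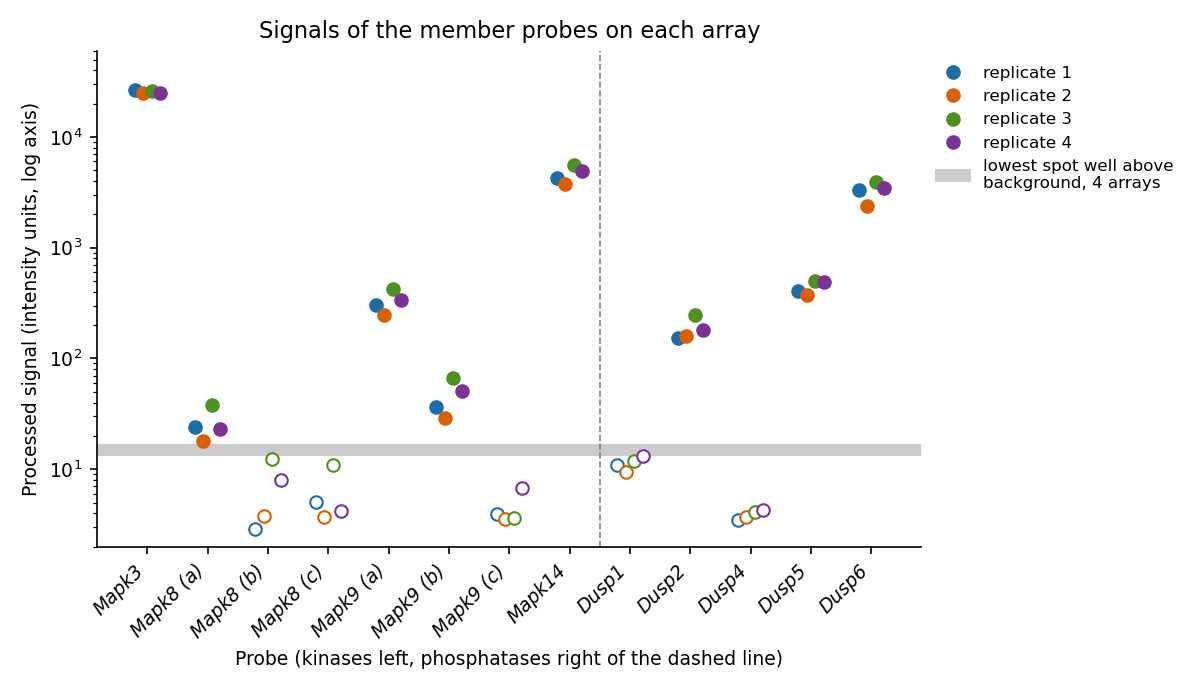
Processed signal in intensity units (log axis) of each of the 13 probes, with 1 point per replicate, filled where the probe was well above background and open where it was not. The grey band spans the lowest signal of a spot well above background on the 4 arrays (13.5 to 16.6 units), and Mapk8 has 1 probe just above the band and 2 below it, as Dusp1 and Dusp4 are; letters a to c order a gene's probes by mean level.

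Mapk3, the gene of ERK1, had signals of 26800, 25100, 25800 and 25000 units on replicates 1 to 4. These unscaled signals differed by at most 1.07-fold. The 75th percentile to which they were scaled differed by 1.6-fold between the arrays. Scaling raised the spread of Mapk3 in this way but lowered that of other detected members, as the highest signal over the lowest went from 2.09-fold to 1.31-fold for Mapk8, from 1.73 to 1.15 for Mapk9, from 1.51 to 1.2 for Mapk14, from 1.62 to 1.30 for Dusp2 and from 1.66 to 1.23 for Dusp6. For Dusp5 it was 1.32-fold before and 1.31-fold after. After scaling, the levels were 5.95, 6.18, 5.54 and 5.91, or 5.90 ± 0.26 (SD, n = 4), with replicate 2 highest and replicate 3 lowest, 1.56-fold apart. This was the largest SD among the detected members, at percentile 82.1 of the 7570 genes tested. The variance of Mapk3 was 1.88 times that fitted for genes of like level. It was not called higher (limma prior variance, adjusted p = 0.991 over all genes, unadjusted p = 0.16).

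Other bright genes shared with Mapk3 the low levels on replicate 3. Their median deviation was highest on replicate 4, whereas Mapk3 was highest on replicate 2. Among the 317 genes with a level above 5, the median deviation from a gene's own mean was 0.00, 0.08, -0.21 and 0.11 on replicates 1 to 4, and 87.1% were lowest on replicate 3. Among 2941 genes with levels from -3 to 0 it was 0.00, 0.00, 0.00 and 0.01, with 30% lowest on replicate 3. The deviations of Mapk3 itself were 0.06, 0.28, -0.36 and 0.02. Quantile normalization, which gives all arrays 1 distribution of signals, left Mapk3 an SD of 0.17. Without replicate 3 its SD was 0.14, and without replicate 1 or 4 it was 0.32. Among the genes whose deviations lay closest to those of Mapk3, by root mean square difference over the 4 arrays, were Actg1 (0.0279) and Grin2c (0.0283). Actg1 codes for cytoplasmic gamma-actin and has pseudogenes, and whether its probe reads them too was not tested. Grin2c codes for a glutamate receptor subunit. The mean levels of Actg1 and Grin2c were 6.81 and -2.7, so Grin2c was not one of the bright genes. With 7569 genes and 4 arrays such close matches are a description only.

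Mapk8, the gene of JNK1, was detected through 1 of its 3 probes and lay near the limit of detection. That probe gave 23.9, 18, 37.7 and 23.0 units, or 1.77, 1.08, 2.26 and 1.41 times the lowest signal called well above background on the same array. Its levels were -4.18, -4.27, -3.88 and -4.17, and replicate 3 was the high one (-4.12 ± 0.17, SD, n = 4). The other probes gave 2.91 to 12.4 units and 3.72 to 11 units and were well above background on no array.

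Mapk9, the gene of JNK2, had 2 of 3 probes detected on all 4 arrays. The brightest lay at -0.51, -0.50, -0.38 and -0.31 on replicates 1 to 4 (-0.42 ± 0.10, SD, n = 4), the smallest SD among the detected members. The second lay at -3.58, -3.60, -3.05 and -3.04, with an SD of 0.31. Both probes were lower on replicates 1 and 2 than on replicates 3 and 4, though the second by more. The third probe, at 3.54 to 6.75 units, was well above background on no array. What separates the 3 probes along the transcript was not analysed here.

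Mapk14, the gene of p38alpha, was printed on 10 spots of each array. Its levels were 3.30, 3.42, 3.33 and 3.57 on replicates 1 to 4 (3.41 ± 0.12, SD, n = 4), with replicate 4 highest. On replicates 2 to 4 the 10 spots of 1 array had SDs of 0.05, 0.08 and 0.05. On replicate 1 the spots had an SD of 0.21 and ran from 2.96 to 3.52, which spans the mean of each of the first 3 arrays. The lowest spot of replicate 4 (3.51) lay above the means of the other arrays.

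Upstream sequences are shown for the 4 phosphatases with a RefSeq promoter in the table used here. By the flag well above background Dusp1 was detected on no array and Dusp2, Dusp5 and Dusp6 on all 4. By the lenient flag each of the 4 genes was detected on all 4 arrays. Each is the 250 bases before the annotated start in assembly GRCr8, read 5′ to 3′ on the strand of the gene. Capitals mark the core of the cyclic AMP response element (TGACG on either strand) and the full palindromic element (TGACGTCA) as well as the CArG box, which the serum response factor is known to bind.
Dusp1 (chr10:17184603-17184852, plus strand): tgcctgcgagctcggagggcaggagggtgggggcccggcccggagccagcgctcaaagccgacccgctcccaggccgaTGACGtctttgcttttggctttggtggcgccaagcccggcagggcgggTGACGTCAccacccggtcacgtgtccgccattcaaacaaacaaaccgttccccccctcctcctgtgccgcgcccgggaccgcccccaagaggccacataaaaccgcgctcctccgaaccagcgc
Dusp2 (chr3:135009386-135009635, plus strand): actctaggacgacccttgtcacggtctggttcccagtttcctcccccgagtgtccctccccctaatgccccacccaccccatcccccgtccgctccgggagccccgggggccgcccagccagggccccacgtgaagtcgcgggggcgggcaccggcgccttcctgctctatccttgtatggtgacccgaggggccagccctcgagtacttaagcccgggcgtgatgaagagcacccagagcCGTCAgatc
Dusp5 (chr1:262543524-262543773, plus strand): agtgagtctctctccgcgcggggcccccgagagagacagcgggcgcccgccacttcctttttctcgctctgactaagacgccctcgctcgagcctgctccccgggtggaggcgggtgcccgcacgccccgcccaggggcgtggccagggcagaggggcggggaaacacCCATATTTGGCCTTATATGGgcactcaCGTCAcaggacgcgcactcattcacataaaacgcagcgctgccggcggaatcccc
Dusp6 (chr7:35979354-35979603, plus strand): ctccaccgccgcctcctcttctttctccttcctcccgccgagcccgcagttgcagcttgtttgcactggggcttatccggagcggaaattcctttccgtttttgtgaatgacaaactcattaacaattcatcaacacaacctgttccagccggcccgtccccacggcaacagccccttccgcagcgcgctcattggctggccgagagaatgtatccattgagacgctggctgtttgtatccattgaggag
The full element TGACGTCA was found in Dusp1, 124 bases before the start, and 1.59% of 33469 promoters of that length hold it on either strand. The core, which each full element also contains, was found in Dusp1, Dusp2 and Dusp5 and in 18.2% of all promoters. Of the kinase genes with a promoter, Mapk8 held the core and Mapk14 did not. Dusp5 had 2 CArG boxes, 82 and 72 bases before the start, where 1.5% of all promoters hold any. Neither motif was found in these letters of Dusp6. The AP-1 motif (TGANTCA, either strand), in 6.34% of all promoters, was in none of the 4. Of the other motifs searched, CACGTG was in Dusp1 and Dusp2 (5.59% of all promoters). GGGCGG was in Dusp1, Dusp2 and Dusp5 (30.5%). TATAAA (12.9%) and the kappaB motif (4.24%) were in none of the 4. These matches describe sequence, and no binding was measured. A link between any motif and detection was not tested.

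Dusp1 codes for MKP-1, a nuclear phosphatase that acts on p38 and JNK above all and is known to restrain cytokine production in macrophages. Its probe gave 11, 9.45, 11.8 and 13.1 units on replicates 1 to 4, which is 0.809, 0.568, 0.708 and 0.801 times the lowest signal called well above background there. All 4 signals passed the lenient flag and none the strict one. Dusp4, which codes for the nuclear phosphatase MKP-2, gave 3.49 to 4.28 units, at most 0.262 times that limit. For Dusp4 the arrays set an upper bound only, while Dusp1 was told from background by the lenient flag alone. Differences between arrays are not read for either gene.

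Dusp2 codes for PAC-1, a nuclear phosphatase found mainly in blood cells. Its signals were 153, 159, 247 and 179 units and its levels -1.5, -1.13, -1.17 and -1.21 on replicates 1 to 4 (-1.25 ± 0.17, SD, n = 4). Replicate 1 was the low one, 1.30-fold under the highest, and the other arrays lay close together.

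Dusp5, a nuclear phosphatase gene specific to ERK, gave levels of -0.10, 0.12, -0.15 and 0.24 (0.03 ± 0.19, SD, n = 4). Replicates 2 and 4 were high and replicates 1 and 3 low. Of its 2 spots per array, the highest of replicates 1 and 3 lay at 0.03 and the lowest of replicates 2 and 4 at 0.11. The pairs were formed from these same levels, so this is a description only. The variance of Dusp5 was 1.27 times that fitted for genes of like level and was not called higher (limma prior variance, adjusted p = 0.991).

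Dusp6 codes for MKP-3, a cytoplasmic phosphatase specific to ERK whose gene is a widely used readout of ERK signalling. Its signals were 3320, 2360, 3920 and 3480 units and its levels 2.94, 2.77, 2.82 and 3.07 on replicates 1 to 4 (2.90 ± 0.13, SD, n = 4), with replicate 4 highest. On replicate 1 its 10 spots had an SD of 0.14, against 0.03 to 0.11 on the other arrays.

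**Figure D2:**
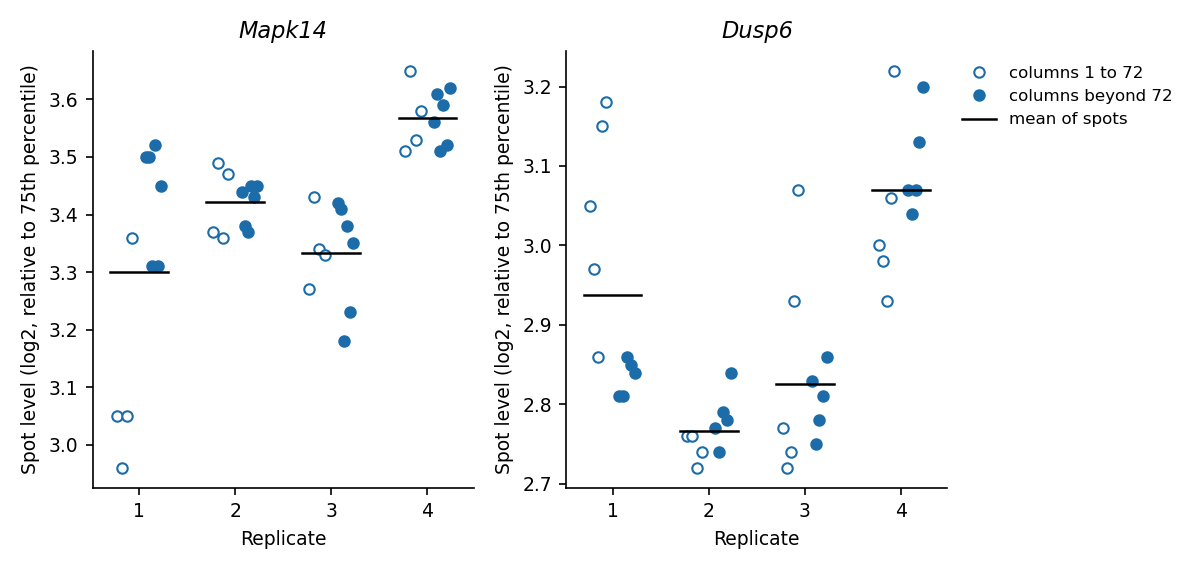
Level of every unflagged spot of Mapk14 and of Dusp6 (log2, relative to the 75th percentile of the array) on replicates 1 to 4, open for spots in columns 1 to 72 of the array and filled beyond, with bars at the mean. On replicate 1 the open spots lie low for Mapk14 (mean 3.11 against 3.43 beyond) and high for Dusp6 (3.04 against 2.84), while on replicate 4 both kinds lie together.

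To describe the wide spread of spots on replicate 1, the spots of the genes printed 10 times were split at column 72. This split was chosen after the spots were seen, and the spots on either side were not tested against each other. For Mapk14 the 4 spots in columns 1 to 72 averaged 3.11 and the 6 beyond 3.43. For Dusp6 the 5 spots there averaged 3.04 and the 5 beyond 2.84, the opposite direction. On replicate 2 the same sets of spots lay at 3.42 and 3.42 for Mapk14 and at 2.75 and 2.79 for Dusp6. With spots beyond column 72 alone, Mapk14 lay at 3.44 ± 0.10 and Dusp6 at 2.88 ± 0.15 (SD, n = 4). Of the other detected members, the probes that stand for them had no spot in those columns.

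None of the 7 detected members was called more variable over the 4 arrays than genes of similar brightness. The test compared each gene's variance over the arrays with limma's trended prior variance, and 39 of 7570 genes (0.515%) passed at an adjusted p under 0.05. Adjusted p was 0.991 to 0.993 for the members, whose unadjusted p ran from 0.16 for Mapk3 to 0.827 for Mapk8, while 6.67% of all genes had an unadjusted p under 0.05. The median SD was 0.14 over the 4 kinases and 0.17 over the 3 detected phosphatases, beside 0.16 over all genes tested, a fold of 1.12. A gene that misses the threshold is not shown to be stable. By Dixon's ratio of gap to range no array stood apart in any of the 7 detected members, while one did in 5.46% of the genes tested.

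**Figure D3:**
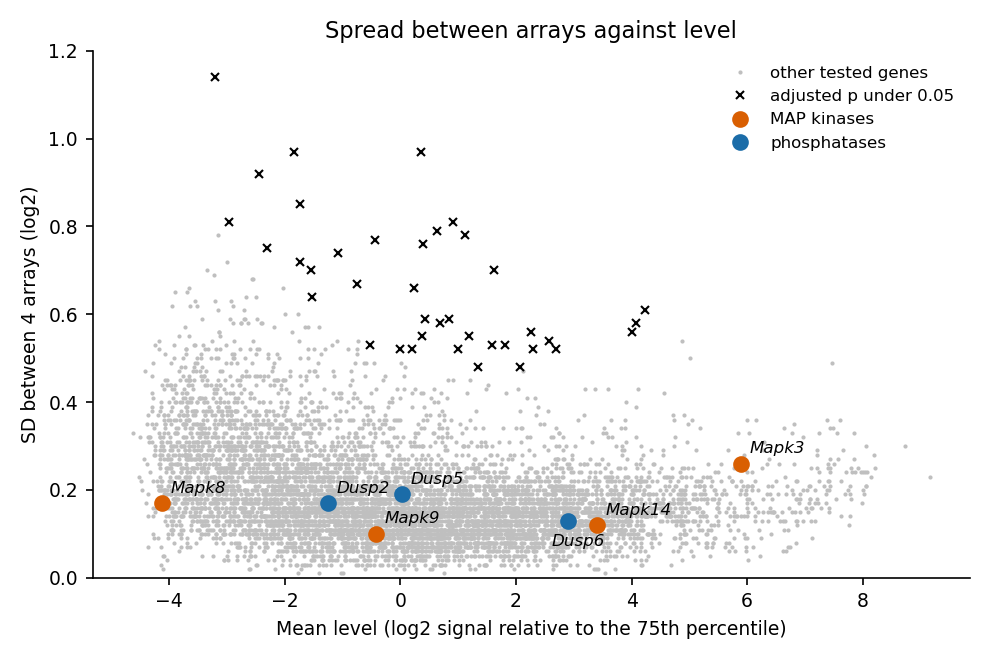
SD between the 4 arrays (log2) against mean level for the 7570 tested genes (grey), with genes at an adjusted p under 0.05 as crosses and the 7 detected members as large points. The members lie within the grey cloud, from 0.10 for Mapk9 to 0.26 for Mapk3.

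No single array was high or low for all kinases or for all members. Replicate 4 was above the gene's own mean in 3 of 4 kinases and in all 3 detected phosphatases, where 62.2% of all tested genes were. Replicate 3 was below it in 2 of 4 kinases and 2 of 3 phosphatases, where 65.2% of all genes were. The log2 difference between Dusp6 and Mapk3, a phosphatase and a kinase gene of the ERK arm, departed from its own mean by -0.02, -0.41, 0.28 and 0.15 on replicates 1 to 4. Its SD was 0.30, where the scaled levels of the genes alone had 0.13 and 0.26. The scaling cancels in such a difference, and the unscaled log2 signals had SDs of 0.31 for Dusp6 and 0.05 for Mapk3. Why the difference varied was not tested, and it is not read as the 2 genes parting between cultures. For Dusp5, the other phosphatase gene specific to ERK, the difference from Mapk3 had an SD of 0.22. After scaling, Dusp5 alone had 0.19 and Mapk3 alone 0.26. Between Dusp6 and Mapk14 the difference had an SD of 0.12.

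**Figure D4:**
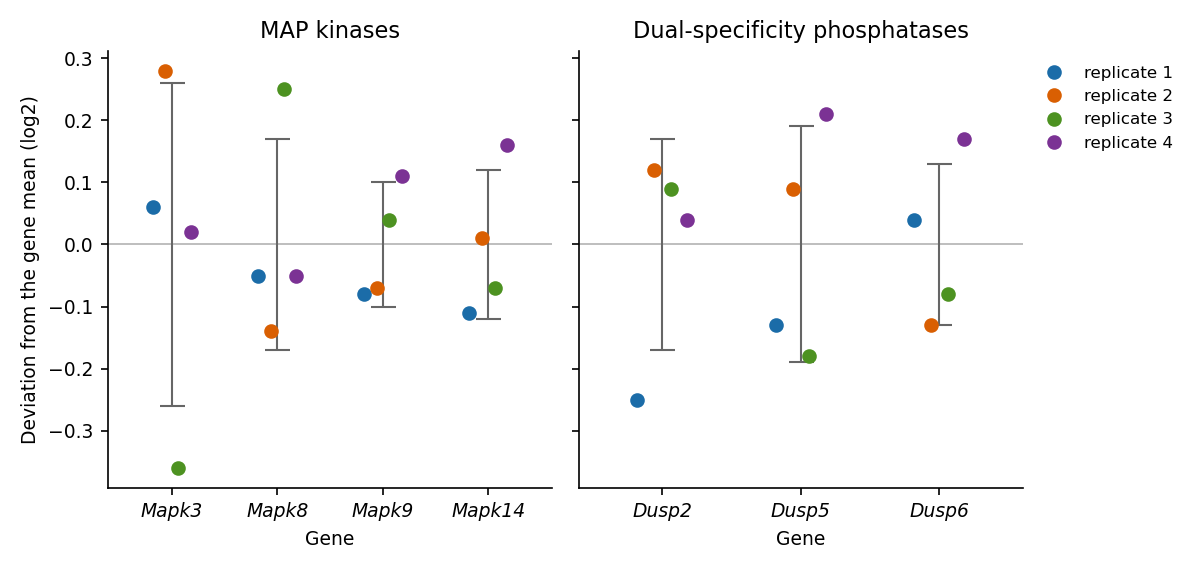
Deviation of each array's level from the gene's mean over 4 arrays (log2), by replicate, for the 4 kinases and the 3 detected phosphatases, with bars of 1 SD on either side of the mean. Replicate 3 is lowest for Mapk3 (-0.36) and highest for Mapk8 (0.25), and replicate 4 is highest for Mapk9, Mapk14, Dusp5 and Dusp6.

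Of 93 other measured genes of the pathway, 60 were detected on all 4 arrays (64.5%), 12 on 1 to 3 and 21 on none, beside 45.7% of all genes detected on all 4. None of the 60 was called more variable between arrays. For 4 of the 60 limma's prior variance gave an unadjusted p under 0.05, beside 6.67% of all genes tested. The median SD of the 60 was 0.15. Several probes named 23 of these 93 genes, and for 5 of the 23 the probes disagreed, with 1 well above background on every array and 1 on no array.

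**Figure D5:**
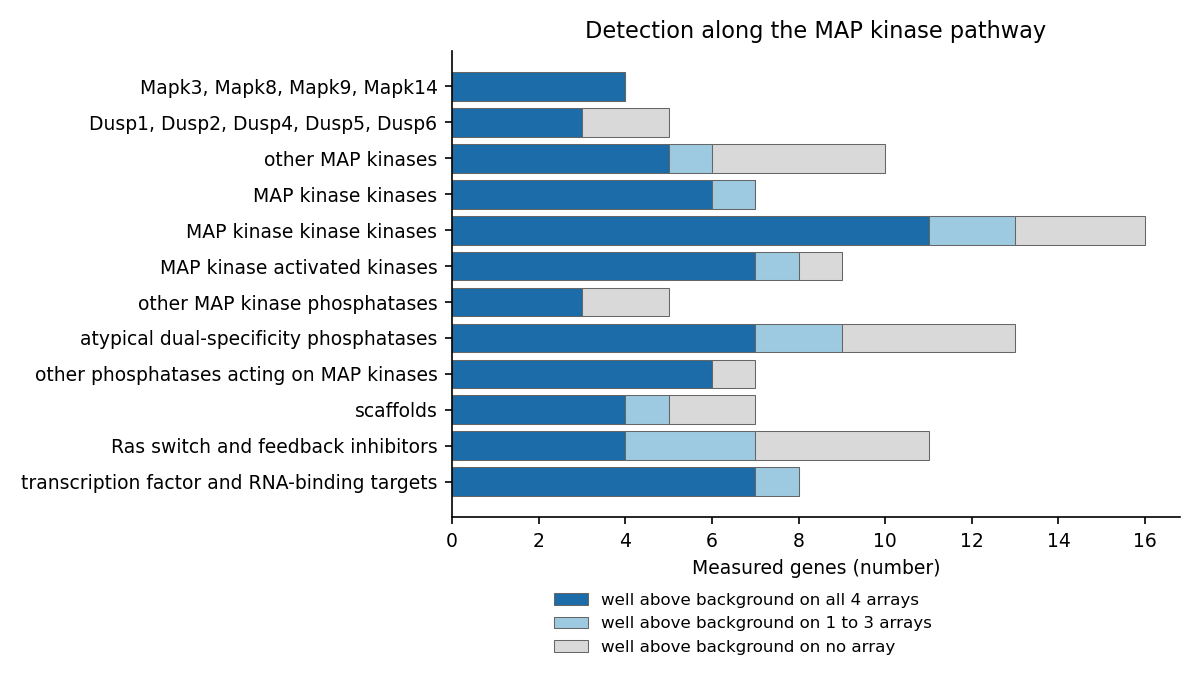
Number of measured genes in the members and in each of 10 lists of other pathway genes, split by whether the gene was well above background on all 4 arrays, on 1 to 3 or on none. All MAP kinase kinases were detected on at least 1 array, while 4 of 10 other MAP kinases, 2 of 5 other MAP kinase phosphatases and 4 of 11 genes of the Ras switch and feedback inhibitors were on none, beside 48.2% of all genes.

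Among the other MAP kinases 5 of 10 were detected on all 4 arrays, close to the 45.7% of all genes. Mapk7, the gene of ERK5, lay at -1.31 ± 0.12 (SD, n = 4) and Mapk6, the gene of the atypical kinase ERK3, at -1.34 ± 0.25. The genes of the other p38 kinases were not well above background on all 4 arrays, as Mapk13 was on 1 array and Mapk11 and Mapk12 on none. Mapk10, the gene of the JNK known from brain and heart, was on none.

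Transcripts of the kinases above them in the relay were mostly detected, where 45.7% of all genes were detected on all 4 arrays. Of 7 MAP kinase kinase genes 6 were detected on all 4 arrays, and Map2k7, which codes for an activator of JNK, on 2. Map2k1, the gene of MEK1, which activates ERK, lay at 2.26 ± 0.12 (SD, n = 4). Map2k3, an activator of p38, lay at 2.83 ± 0.21, and its SD was 0.09 without replicate 1. Map2k4, which activates JNK, had the largest SD of the 6, with -2.64, -3.07, -2.37 and -3.50 on replicates 1 to 4 (limma prior variance, adjusted p = 0.516). Of 16 genes of the layer above, 11 were detected on all 4 arrays. Map3k7, the gene of TAK1, which relays signals of cytokine and Toll-like receptors, lay at -2.12 ± 0.17. Map3k8, the gene of TPL2, which links those receptors to ERK in macrophages, lay at -0.27 ± 0.05. Map3k9, a mixed-lineage kinase gene, had the largest SD of these 11 by the brightest probe of each gene (-1.08 ± 0.36). As the mean over its detected probes its SD was 0.26.

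Genes of kinases that MAP kinases activate were detected on all 4 arrays in 7 of 9 cases, where 45.7% of all genes were. Mapkapk2, the gene of MK2, through which p38 stabilises cytokine messenger RNAs, lay at 3.86 ± 0.12 (SD, n = 4). Mknk1, whose product phosphorylates a translation initiation factor, lay at 0.64 ± 0.11. Rps6ka1, the gene of a ribosomal S6 kinase activated by ERK, had the largest SD of these 7 (4.13 ± 0.20), which fell to 0.07 without replicate 3. All 7 lay below their mean on replicate 3, as 65.2% of all tested genes did. Among the 807 tested genes with levels from 3 to 5, 74.3% were lowest on that array.

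Detection of other phosphatase genes is read beside the 45.7% of all genes detected on all 4 arrays. Of 5 further MAP kinase phosphatases 3 were detected on all 4 arrays, with Dusp10, which acts on JNK and p38, at -3.38 ± 0.32 (SD, n = 4) and Dusp16, which acts on JNK, at -2.10 ± 0.13. Dusp8 and Dusp9 were on none. Of 13 atypical dual-specificity phosphatases, small enzymes without the kinase-binding domain, 7 were detected on all 4 arrays. Dusp3 lay at 2.56 ± 0.11, Dusp22 at 2.20 ± 0.09 and Styx, which codes for a catalytically inactive member, at -2.00 ± 0.24. Of 7 phosphatase genes of other families 6 were detected, with the tyrosine phosphatase gene Ptpn7, known from blood cells, at 2.04 ± 0.11. Ppm1d, a p53 target whose product acts on p38, lay at -1.63 ± 0.17 and Ppm1a at -0.23 ± 0.18.

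In the list of the Ras switch and its feedback inhibitors 4 of 11 genes were detected on all 4 arrays, 3 on some and 4 on none. Of all genes 45.7% were detected on all 4 arrays. By the lenient flag 7 of the 11 were detected on all 4, where 55.3% of all genes were. Spry2, Spry4 and Spred2, whose products damp signalling from receptors to ERK, were well above background on no array, and Spred1 on 1. Sos1, which loads Ras with its activating nucleotide, lay at -2.40 ± 0.29 (SD, n = 4). Of 7 scaffold genes 4 were detected on all 4 arrays, again beside 45.7% of all genes. Mapk8ip3 and Spag9 code for scaffolds of the JNK arm and lay at 0.49 ± 0.11 and -0.82 ± 0.41. Of the 2 probes of Mapk8ip3, 1 was well above background on all 4 arrays and 1 on none. The SD of Spag9 ran from 0.24 to 0.5 with 1 replicate left out, and was lowest without replicate 2. Without replicate 1 it was 0.48 (limma prior variance, adjusted p = 0.0819). Lamtor3, an ERK scaffold on endosomes, lay at 0.68 ± 0.03.

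Of 8 target genes 7 were detected on all 4 arrays, where 45.7% of all genes were. The exception was Zfp36, which codes for tristetraprolin, an RNA-binding protein controlled by p38 and MK2, detected on 2. The ETS factor genes Elk1 and Elk4, targets of ERK, lay at -1.83 ± 0.15 and -1.10 ± 0.54 (SD, n = 4). Elk4 had the largest SD of all 60 detected pathway genes, with -1.77, -1.16, -0.46 and -1.0 on replicates 1 to 4 (limma prior variance, adjusted p = 0.0812). It was lowest on replicate 1 and highest on replicate 3, 2.48-fold apart, and passed the threshold under 3 alternatives, with normexp (adjusted p = 0.00034), without a filter on dim genes (0.0201) and without replicate 2 (0.00568). Under the other 10 alternatives it missed the threshold, with adjusted p from 0.0853 to 0.791 by limma's prior variance. Its SD was 0.37 without replicate 1.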

How the data were processed

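Per the file headers, the deposited intensity columns hold processed signals per spot, made with Agilent Feature Extraction 11.0.1.1. The software had subtracted background and removed spatial trends, and no scaling between arrays was done. The other deposited columns used were median spot and background intensity and flags, per the file headers. The input was 100 ng of RNA (integrity number above 7.5), labelled with Cy3 as cRNA, per the labels' protocols.

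From these, outlier-flagged spots (634 to 669 of 58717 per array, controls apart) were dropped, and levels were computed as log2 of signal over the 75th percentile of the remaining spots. Spots of a probe were averaged. Of 45598 probes, 21109 were named through their accession by the RefSeq table of GRCr8, and 24489 were not. Probe positions were not used, as the grid file names an earlier rat assembly. Promoter sequences and their coordinates are from RefSeq (GRCr8), where 6 of 9 members matched. The brightest probe represented a gene. A probe was detected where the flag was set on over 0.5 of its spots. Genes whose representing probe was detected on all 4 arrays entered the variance test (limma 3.58.1, R 4.3.3, trended and robust prior with 24.3 degrees of freedom, Benjamini-Hochberg adjustment over 7570 genes), which was tested on simulated data. Precision is limited by the number of arrays.

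The members, lists and tests were chosen with earlier results of these data known. Named genes are the members, the first 2 measured genes of each list and its gene with the largest SD, any list gene called, and the 3 genes closest to the member with the largest SD. A few of these are left out of the text. Alternatives were another detection flag, 1 array sufficing, the brightest probe alone, flagged spots kept, normexp (offset 50), other scalings, the mean over probes, other priors, no filter and each replicate left out. A percentile with flagged spots counted, and spots beyond column 72, were added after seeing the data.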

Additional observations from a re-analysis of the deposited data

Results flagged for a closer look

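Map2k1, the gene of MEK1, had levels of 2.44, 2.19, 2.23 and 2.19 on replicates 1 to 4, and replicate 1 stood above the others. The gap to the nearest array was 82.9% of the whole range, which exceeds Dixon's 95% critical value for 4 samples only past the printed digits. The difference was small, 1.2-fold between the highest and the lowest array, and the gene's variance did not exceed that of genes of like level (limma prior variance, adjusted p = 0.991). It was 1 of 26 named pathway genes detected on all 4 arrays, and chance gives about 1 in 20. None of the 7 detected members stood out in this way, the widest gap being 78.5% of the range, for Dusp2.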

How the results depend on the processing

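Counts of detected members kept within 1.5 times under the alternatives run (7 or 8 members, 4 kinases, 3 or 4 phosphatases), as did the 60 to 73 other pathway genes detected. The median SD ran from 0.12 to 0.19 for the kinases and from 0.14 to 0.18 for the phosphatases, and the 7 tested members were called under none of their 13 alternatives (limma prior variance, lowest adjusted p 0.896, for Mapk3 without replicate 4). Without 1 replicate the SD ran from 0.14 to 0.32 for Mapk3, from 0.05 to 0.20 for Mapk8 and from 0.04 to 0.21 for Dusp2. Levels moved by more than 1 SD in 26 of 92 values recomputed. With the percentile over detected probes all 9 members lay lower (Mapk3 at 4.18 in place of 5.90), since that percentile is higher. With normexp Mapk8 lay at -2.37 in place of -4.12, Dusp1 at -2.69 in place of -5.26 and Dusp4 at -3.03 in place of -6.80, and as the mean over its detected probes Mapk9 lay at -1.87 in place of -0.42. The number of genes called depended on the processing. In place of 39 it was 206 with normexp, 127 without a filter on dim genes and 9 without robust estimation. It was 0 with the percentile over detected probes, 0 after quantile normalization and 0 with a prior without trend, where 403, 492 and 467 genes had an unadjusted p under 0.05 by limma. Without 1 replicate it ran from 10 to 77 (32, 77, 10 and 16 without replicates 1 to 4), and the cause was not tested. Detected genes of the Ras list numbered 7 in place of 4 by the lenient flag, and also 7 where detection on 1 array was enough. With spots beyond column 72 alone, Dusp6 had a Dixon's ratio of 0.841 (above its 95% critical value), with replicate 4 high. Chance gives 5% such cases, and these spots were chosen after the data were seen, so no conclusion is drawn. Signals near background limit what can be said of Mapk8, Dusp1 and Dusp4. No paired analysis was possible because all samples belong to 1 group.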
